A study of Mus musculus with 4 samples.

Results

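The genes described here are 9 members of the fibroblast growth factor (FGF) system, 6 ligands (Fgf1, Fgf2, Fgf5, Fgf7, Fgf10 and Fgf18) and 3 receptors (Fgfr1, Fgfr2 and Fgfr3). They were taken by row name out of the 22716 genes listed in the 4 count files, and all 9 were listed in every file. The files hold single-cell RNA sequencing (Drop-seq, in which each captured mRNA molecule is tagged and counted as a unique molecular identifier, or UMI) of the sciatic nerve of Wildtype CD1 mice. One library was made from the distal nerve segment 3 d after the nerve was resected (3 DPI), and 1 from the uninjured nerves of both sides of adult mice. The other 2 libraries came from neonatal nerve, a P3 to P4 preparation that was sorted by FACS (replicate 1, here neonatal FACS) and a P2 to P3 preparation cleaned with myelin removal beads (replicate 2, here neonatal beads). Both adult libraries were also cleaned with myelin removal beads, and all nerves were dissociated with collagenase and trypsin. Each adult condition was thus 1 library, and the neonatal libraries differed in age and isolation, so no difference between conditions has a replicate check and no test was made. The sources used here do not state how many animals went into a library.

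FGF ligands are secreted or released proteins that bind receptor tyrosine kinases of the Fgfr family together with heparan sulfate chains on the cell surface. Binding activates the Ras and MAP kinase cascade, which is restrained by feedback inhibitors of the Sprouty, Spred and dual-specificity phosphatase families. Fgf7 and Fgf10 are known as mesenchymal ligands for an epithelial splice form of Fgfr2, Fgf1 binds all Fgf receptors, and FGFs have long been studied as mitogens of Schwann cells and fibroblasts and as survival factors for neurons. Counts of UMIs per gene cannot tell the splice forms of a receptor apart.

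After filtering, 2162 cells of the 3 DPI library, 1837 of the uninjured, 2190 of the neonatal FACS and 5419 of the neonatal beads library were kept, and their median UMI counts were 1800, 1632, 1567.5 and 995. Summed over pairs of libraries, 8 cell barcodes were shared. Clusters were named from marker genes, and at least 1 of a cluster's own markers was among its 10 leading genes in 29 of 34 clusters. Wif1, an endoneurial marker, stood at 884 CPM (counts per 1000000 UMIs of a class) in endoneurial-like cells at 3 DPI but at 10.4 CPM in those of the uninjured nerve, whereas Osr2 was highest in the endoneurial-like class of all 4 libraries. Comp was all but absent from neonatal epineurial-like cells, at 10.2 and 0 CPM, so the split of epineurial-like cells into a class high in Pi16 and a class high in Comp was made in the adult libraries only. At 3 DPI no perineurial-like or myelinating Schwann-like class was found.

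Among the cells kept from the adult nerve, UMIs of Fgf7, Fgf10 and Fgf18 came almost entirely from mesenchymal classes. Such shares depend on which cells were captured. The authors thought it likely that the beads lowered the number of myelinating Schwann cells in the uninjured library. Mesenchymal classes held 96.1% of Fgf7 UMIs at 3 DPI and 91.1% in the uninjured nerve, 97.8% and 100% of Fgf10 UMIs, and 99.3% and 95.3% of Fgf18 UMIs, when they held 68.7% and 50.6% of all UMIs. Their promoters are shown because these are the ligands whose levels the mesenchymal classes divide among themselves. Each run spans 250 bases before to 50 bases after the annotated start in RefSeq (GRCm38.p6), 5′ to 3′ on the strand of the gene, and capitals mark motif matches. The TATA box was searched as TATAAA on both strands. The CAAT box was searched in the same way as CCAAT, and the GC box as GGGCGG. Fgf7 lies on the plus strand at chr2:126034408-126034707, Fgf10 on the plus strand at chr13:118714449-118714748 and Fgf18 on the minus strand at chr11:33147351-33147650.
Fgf7: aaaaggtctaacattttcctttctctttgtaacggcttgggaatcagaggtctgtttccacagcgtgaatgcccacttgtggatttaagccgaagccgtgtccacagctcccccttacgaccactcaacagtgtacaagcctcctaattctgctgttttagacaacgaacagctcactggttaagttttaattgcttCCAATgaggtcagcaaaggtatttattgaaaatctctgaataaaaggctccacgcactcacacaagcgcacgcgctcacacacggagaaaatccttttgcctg
Fgf10: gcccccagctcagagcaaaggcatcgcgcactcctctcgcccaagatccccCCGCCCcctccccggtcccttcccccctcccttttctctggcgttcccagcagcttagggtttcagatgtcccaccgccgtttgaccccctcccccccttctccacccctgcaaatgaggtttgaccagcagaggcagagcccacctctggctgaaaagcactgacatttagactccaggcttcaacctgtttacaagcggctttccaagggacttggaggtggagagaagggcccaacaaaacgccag
Fgf18: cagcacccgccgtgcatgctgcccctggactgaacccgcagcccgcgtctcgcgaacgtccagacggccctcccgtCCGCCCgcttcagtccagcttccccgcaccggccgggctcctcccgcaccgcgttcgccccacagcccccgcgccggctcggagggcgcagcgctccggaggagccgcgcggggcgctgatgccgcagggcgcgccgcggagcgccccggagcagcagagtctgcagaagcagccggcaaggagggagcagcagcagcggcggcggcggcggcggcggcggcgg
The Fgf7 window held 1 CCAAT match, and the windows of Fgf10 and Fgf18 each held 1 GGGCGG match, read as CCGCCC. Of 32851 promoters of that length, 37.4% held the CAAT box, 35.7% the GC box and 13.6% the TATA box. The GC content of the windows was 45.7% for Fgf7, 60.7% for Fgf10 and 78.7% for Fgf18, against a median of 52.7% over all promoters. In the GRCm38 annotation, Fgf10 shares 123 exonic bases with the antisense gene Gm16263, and no source used here states whether the counting used strand.

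**Figure D1:**
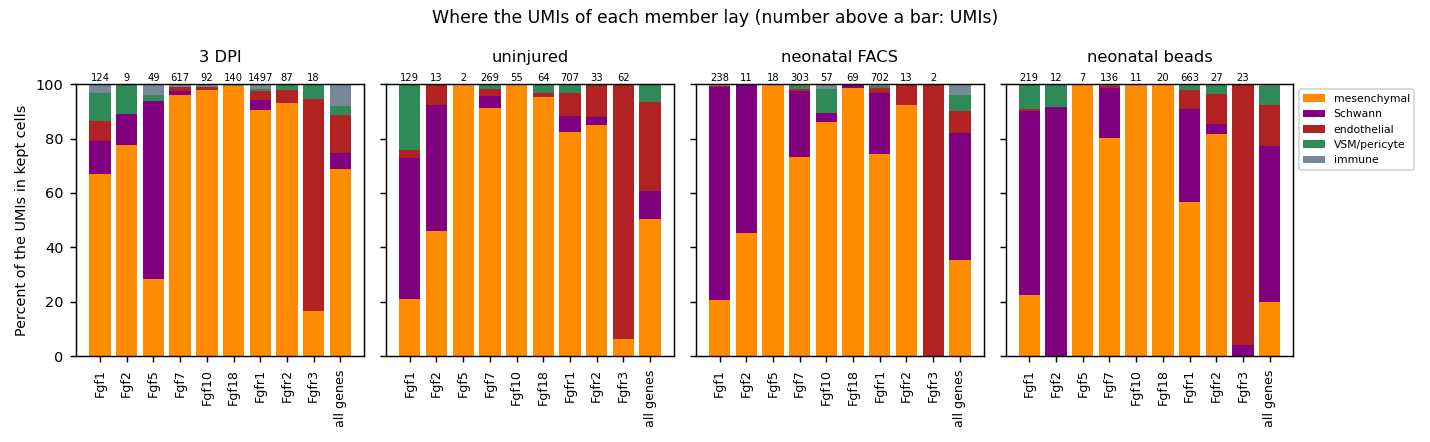
Share of each member's UMIs (percent, vertical axis) held by each compartment of cells, as stacked bars for each library, with all genes for reference. The number above a bar is the UMIs it rests on. Mesenchymal cells fill at least 86.0% of the Fgf10 and 95.3% of the Fgf18 bars, endothelial cells most of the Fgfr3 bars, and Fgf1 bars have several compartments, with Schwann cells holding 12.1% at 3 DPI and 51.9% in the uninjured nerve.

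Fgf10 was an epineurial ligand in these libraries. At 3 DPI it stood at 87.7 CPM (95% interval 65.5 to 115, exact Poisson) in Pi16 epineurial-like cells, with a UMI in 34 of 263 cells, and at 37.4 CPM (22.9 to 57.8) in Comp epineurial-like cells. In the uninjured nerve the values were 74.3 CPM (39.6 to 127) and 60.2 CPM (43.4 to 81.4). Neonatal epineurial-like cells held 86.1 CPM (62.0 to 116) in FACS and 63.4 CPM (31.7 to 113) in beads. These intervals, and those below, cover counting error only. Endoneurial-like cells held almost none, 3 UMIs in 276 cells at 3 DPI and 0 UMIs in the other 3 libraries, of which the 0 of 417 uninjured cells allows a share of cells with a UMI of up to 0.719%, which does not limit cells that express the gene below the depth read. At 3 DPI, Pi16 epineurial-like cells were thus 44.0-fold (14.2 to 220) above endoneurial-like cells in Fgf10 CPM. The ratio of Pi16 over Comp epineurial-like cells was 2.34 (1.37 to 4.14) at 3 DPI and 1.23 (0.608 to 2.34) in the uninjured nerve. Outside mesenchymal classes the highest value with more than 3 UMIs was 17.6 CPM in neonatal FACS VSM/pericyte-like cells, from 5 UMIs in only 2 cells. With single cells placed by their own markers, the 3 DPI Pi16 value was 45.6 CPM.

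Fgf18 followed Fgf10 in class, with a wider reach among mesenchymal cells. It stood at 101 CPM (77.2 to 130) in Pi16 epineurial-like cells at 3 DPI, with a UMI in 16.3% of cells, and at 103 CPM (61.0 to 163) in those of the uninjured nerve. Comp epineurial-like cells held 31.8 CPM (18.5 to 51.0) and 45.9 CPM (31.4 to 64.8). The ratio of Pi16 over Comp epineurial-like cells was 3.18 (1.83 to 5.81) at 3 DPI and 2.24 (1.18 to 4.12) in the uninjured nerve, and both intervals lay above 1. Fgf18 was also found in bridge-like cells (mesenchymal cells known from the tissue that spans the gap of a cut nerve), at 35.3 CPM (25.2 to 48.1), whereas Fgf10 in that class was at 7.06 CPM (3.05 to 13.9) against its own 87.7 CPM in Pi16 cells. Perineurial-like cells held 24.1 CPM (14.3 to 38.1) in neonatal FACS, 16.3 CPM (8.14 to 29.2) in neonatal beads and 15.8 CPM, from 2 UMIs, in the uninjured nerve. Endoneurial-like cells held 8.47 CPM (3.87 to 16.1) in the uninjured nerve and 0 UMIs in 276 cells at 3 DPI, which put 3 DPI Pi16 epineurial-like cells at least 50.7-fold above them. Neonatal epineurial-like cells held 102 CPM (76.1 to 135) in FACS and 51.9 CPM (23.7 to 98.5) in beads, with overlapping intervals.

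Fgf7, also called keratinocyte growth factor, divided the epineurial classes the other way. Comp epineurial-like cells held the highest level of any adult class, 245 CPM (205 to 291) at 3 DPI and 258 CPM (222 to 299) in the uninjured nerve, with a UMI in 38.8% and 34.5% of cells. Pi16 epineurial-like cells held 120 CPM (93.5 to 151) and 97.2 CPM (56.6 to 156). Comp cells were 2.05-fold (1.52 to 2.77) above Pi16 cells at 3 DPI and 2.66-fold (1.61 to 4.66) above them in the uninjured nerve. At 3 DPI the next levels, 124 CPM in bridge-like, 120 CPM in Pi16 epineurial-like and 106 CPM in endoneurial-like cells, had overlapping intervals. Mesenchymal cells high in Top2a, a gene of dividing cells, held 70.6 CPM (56.8 to 86.6). Macrophage/monocyte-like cells, which should lack Fgf7, had a UMI in 1.28% of cells at a median of 967 UMIs, and endothelial-like cells in 2.89% at a median of 1981.5 UMIs.

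Perineurial-like cells were a second site of Fgf7. They held 142 CPM (84.4 to 225) in the uninjured nerve, 169 CPM (140 to 201) in neonatal FACS and 108 CPM (84.8 to 136) in neonatal beads. The neonatal values rest on a class that was not named under every setting tried. Neonatal epineurial-like cells held 176 CPM (141 to 218) and 150 CPM (97.9 to 220), and did not differ from perineurial-like cells of the same library beyond the intervals. Fgf7 was also present in myelinating Schwann-like cells, at 108 CPM (53.9 to 193) from 11 UMIs in 6 of 80 cells of the uninjured nerve and at 66.3 CPM (49.2 to 87.4) from 50 UMIs in 33 of 433 cells of neonatal FACS. These cells were 4.0-fold (2.40 to 6.87) above non-myelinating Schwann-like cells in neonatal FACS. In the uninjured nerve the non-myelinating class had a single Fgf7 UMI, for a ratio of 33.9 (4.92 to 1457). Schwann-like cells at 3 DPI held 20.2 CPM (9.22 to 38.3) of Fgf7 from 9 UMIs, and their ratio over the uninjured non-myelinating class was 6.32 with an interval, 0.876 to 277, that held 1. Schwann classes together held 24.1% of Fgf7 UMIs in neonatal FACS, where they held 46.7% of all UMIs.

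Fgf7 in endoneurial-like cells was the Fgf7 difference between the adult conditions whose interval lay above 1. Their level was 106 CPM (90.6 to 124) at 3 DPI and 28.2 CPM (19.05 to 40.3) in the uninjured nerve, and 24.2 CPM (11.6 to 44.5) and 18.9 CPM (9.04 to 34.7) in the neonatal libraries. The 3 DPI value lay above the other 3, whose intervals overlapped. The ratio of 3 DPI over uninjured was 3.77 (2.54 to 5.77), and 86 of 276 cells at 3 DPI had a Fgf7 UMI against 23 of 417. The cells at 3 DPI were deeper, with a median of 4092.5 UMIs against 2175. Thinned to 500 UMIs per cell, the share of cells with a UMI was 3.91% at 3 DPI and 0.973% in the uninjured nerve.

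A gene was counted as called where its CPM ratio between conditions was at least 2 in one direction, among genes with at least 10 UMIs in both groups together. In endoneurial-like cells 4 of the 9 members had enough UMIs, and 2 of them, Fgf7 and Fgf1, were called higher at 3 DPI and 0 lower, where 19.5% of all 11153 genes were called higher and 9.81% lower. In Pi16 epineurial-like cells 1 of 6 was higher and 0 lower, against 14.7% and 8.35% of all genes. In Comp epineurial-like cells 1 of 5 was higher and 0 lower, against 10.6% and 7.89%. In Schwann-like cells at 3 DPI set against uninjured non-myelinating Schwann-like cells, 2 of 4 were higher and 1 lower, against 19.8% and 15.4%. The 3 DPI library had no separate myelinating class, so these Schwann calls depend on the class chosen for comparison. Fgf7 stood at 20.2 CPM at 3 DPI, against 3.19 CPM in uninjured non-myelinating and 108 CPM in uninjured myelinating Schwann-like cells. In endothelial-like cells 1 of 4 was higher and 1 lower, against 9.93% and 8.11%. In VSM/pericyte-like cells (vascular smooth muscle and pericytes) 0 of 2 were higher and 1 lower, against 16.6% and 13.2%. Over the 6 classes 7 calls were higher, of which thinning left 1 and a minimum of 30 UMIs left 2. Thinning also discards UMIs, so a member can fall below the 10 UMIs needed for a call whatever its ratio. With so few members per class, these counts do not set the members apart from other genes. Fgf7, Fgf10, Fgf18 and Fgfr1 were called in neither epineurial class, with Fgf10 ratios of 1.18 (0.634 to 2.36) in Pi16 and 0.622 (0.346 to 1.08) in Comp cells.

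**Figure D2:**
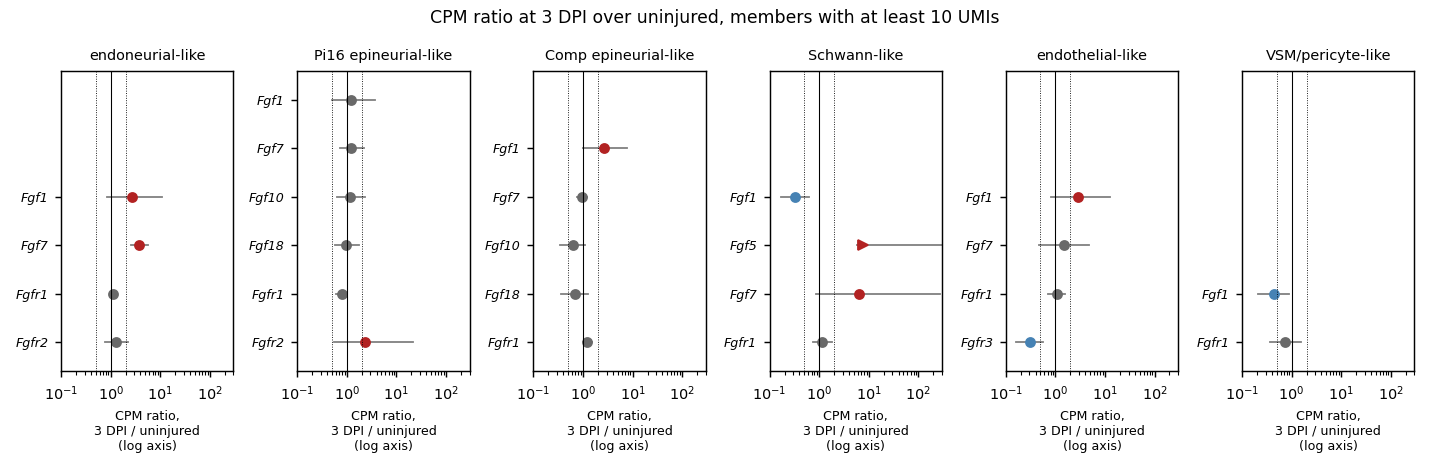
CPM ratio of 3 DPI over uninjured (log axis) for each member with at least 10 UMIs in both groups together, by cell class, with 95% intervals for counting error clipped at the axis ends. Dotted lines mark ratios of 0.5 and 2. Red points were called higher, blue points lower and grey points neither. A triangle is a ratio against the floor of 3 UMIs for a group at 0. Fgf7 in endoneurial-like cells and Fgf5 in Schwann-like cells are the called higher points whose whole interval lies above 2.

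Fgf5 was highest in Schwann-like cells of the injured nerve, which held 32 of the 49 Fgf5 UMIs of that library. It stood there at 71.7 CPM (49.0 to 101), with a UMI in 19 of 137 cells. In the uninjured nerve it had 0 UMIs in 277 non-myelinating and in 80 myelinating Schwann-like cells, of which the former, at a median of 974 UMIs per cell, allows a share of cells with a UMI of up to 1.08% but sets no limit on cells expressing the gene. Against a floor of 3 UMIs over the uninjured class, Fgf5 CPM was at least 7.50-fold higher at 3 DPI. The bound was 4.86 with cells assigned by their own markers and 2.84 on thinned cells, where the floor of 3 UMIs stands for a higher CPM. Neonatal non-myelinating Schwann-like cells also had 0 UMIs, in 747 FACS and 3169 bead-prepared cells. The next class at 3 DPI with at least 50 cells was bridge-like cells, at 6.18 CPM (2.48 to 12.7), and macrophage/monocyte-like cells had a UMI in 1 of 392 cells.

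Fgf5-positive Schwann-like cells at 3 DPI were deeper than the rest, with a median of 3792 UMIs against 1896. Of the 19 cells, 7 also had a UMI of Top2a or Mki67, 2 genes of dividing cells, as had 38 of all 137. Thinned to 500 UMIs, 4 of 123 cells kept a Fgf5 UMI. A lower level of Fgf5 was present in neonatal perineurial-like cells, at 21.4 CPM (12.2 to 34.8) in FACS, where 10 of 246 cells had a UMI, and at 5.93 CPM (1.62 to 15.2) in beads. That neonatal class was not named under every setting tried. Perineurial-like cells of the uninjured nerve had 0 UMIs, but in only 65 cells, which allows a level of up to 29.2 CPM. The neonatal and uninjured perineurial values therefore cannot be told apart at this depth.

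**Figure D3:**
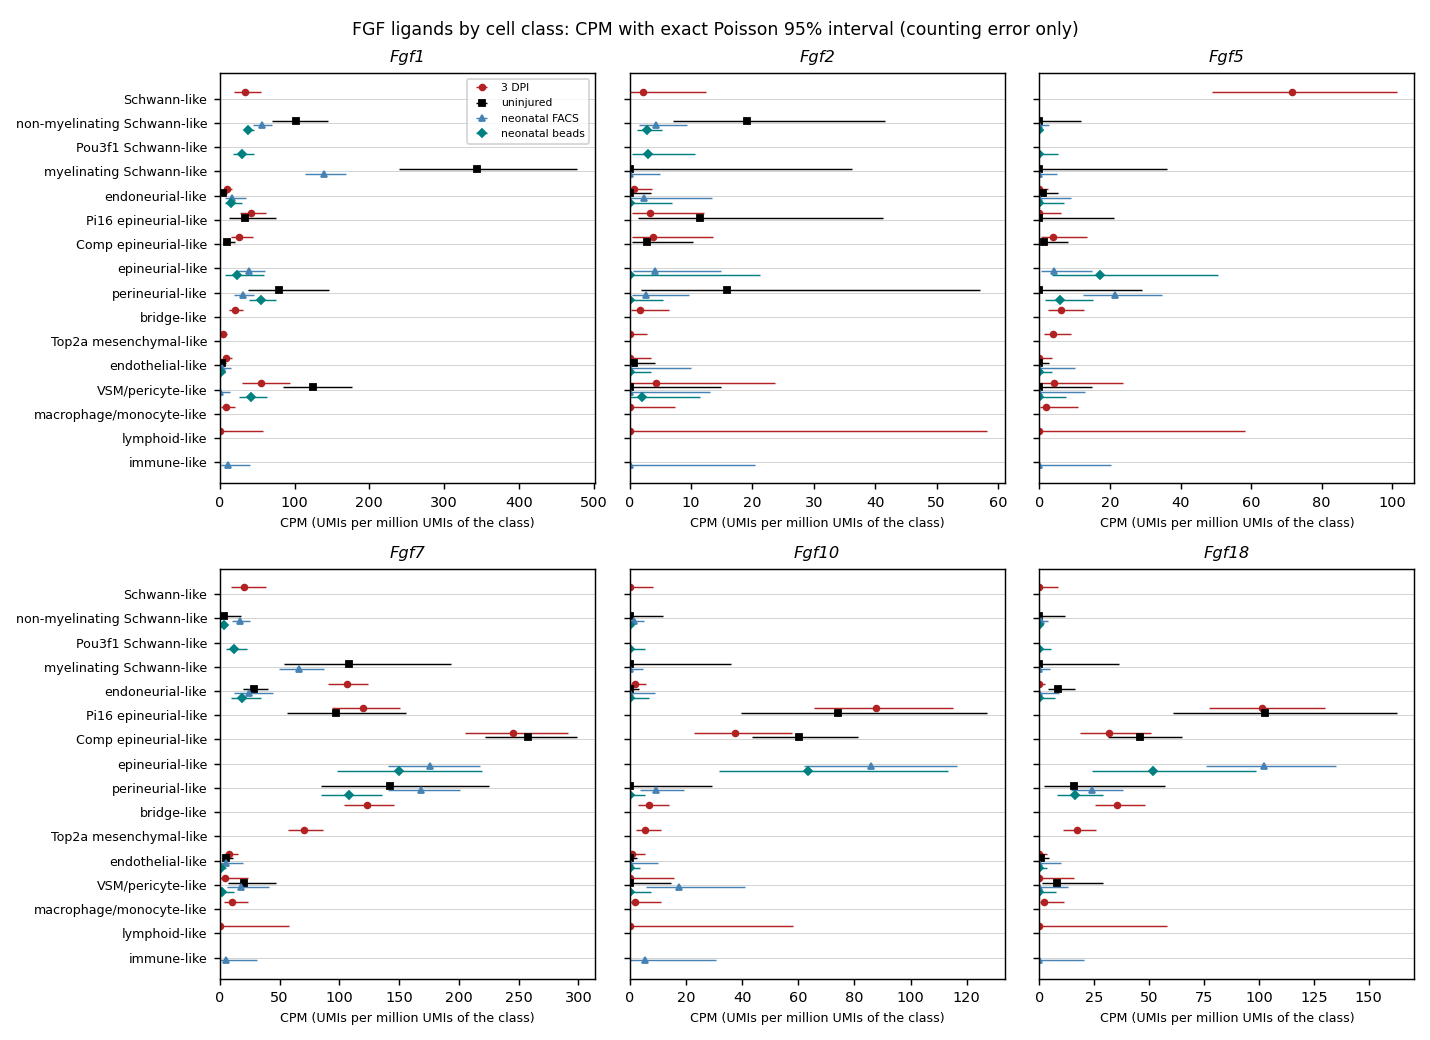
Level of each FGF ligand (CPM, horizontal axis) in each cell class with at least 50 cells (vertical axis), 1 point per library with its exact Poisson 95% interval. Fgf10 and Fgf18 peak in epineurial-like classes, Fgf7 in Comp epineurial-like cells at 245 and 258 CPM, Fgf5 in 3 DPI Schwann-like cells at 71.7 CPM and Fgf1 in uninjured myelinating Schwann-like cells at 343 CPM.

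Fgf1, acidic FGF, which lacks a classical secretion signal, had UMIs in Schwann-like, mesenchymal and vascular classes. Its highest levels in a library with a myelinating class of at least 50 cells were in myelinating Schwann-like cells, 343 CPM (239 to 478) in the uninjured nerve with a UMI in 22 of 80 cells, and 139 CPM (114 to 169) in neonatal FACS. Non-myelinating Schwann-like cells held 102 CPM (69.8 to 144) in the uninjured nerve, 56.2 CPM (44.4 to 70.1) in neonatal FACS and 38.3 CPM (31.9 to 45.6) in neonatal beads. Myelinating cells were 3.37-fold (2.02 to 5.62) above non-myelinating cells in the uninjured nerve and 2.48-fold (1.83 to 3.37) above them in neonatal FACS. Schwann-like cells at 3 DPI held 33.6 CPM (18.8 to 55.4), with a UMI in 9 of 137 cells. That level was 3.04-fold (1.60 to 6.03) below the uninjured non-myelinating cells. After thinning, however, the 2 shares with a UMI were 3.25% and 4.20%, the CPM ratio was 0.968, and the call was lost. It was also lost when every cell weighed equally, with a ratio of 0.582, and when cells were assigned from their own markers, with a ratio of 0.589.

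Among vascular classes, VSM/pericyte-like cells held 125 CPM (84.9 to 177) of Fgf1 in the uninjured nerve, 55.1 CPM (29.3 to 94.2) at 3 DPI, 41.1 CPM (25.1 to 63.5) in neonatal beads and 0 UMIs in 129 neonatal FACS cells. The uninjured level was 2.27-fold (1.15 to 4.72) above that at 3 DPI. Giving every cell the same weight brought the ratio of 3 DPI over uninjured from 0.441 to 0.557, which is no longer a call. The 2 neonatal preparations did not overlap in interval for this class, since 0 UMIs in neonatal FACS allow up to 13.0 CPM.

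The other Fgf1 differences between the adult libraries were small in counts. Endoneurial-like cells held 9.98 CPM at 3 DPI and 3.76 CPM in the uninjured nerve, for a ratio of 2.65 (0.845 to 10.97). The ratio was 2.61 (0.986 to 7.64) in Comp epineurial-like cells and 2.89 (0.806 to 12.8) in endothelial-like cells. All 3 intervals held 1. Macrophage/monocyte-like cells at 3 DPI held 7.95 CPM (2.17 to 20.4), which overlapped the endoneurial-like value. Pi16 epineurial-like cells, at 42.2 CPM (27.3 to 62.3) and 34.3 CPM (12.6 to 74.7), and perineurial-like cells, at 79.1 CPM (37.9 to 145) in the uninjured nerve, were the highest mesenchymal classes.

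Fgf2, basic FGF, was barely detected, the 3 DPI library holding 9 UMIs, the uninjured 13, neonatal FACS 11 and neonatal beads 12. The highest level was 19.1 CPM (7.02 to 41.6) in uninjured non-myelinating Schwann-like cells, from 6 UMIs in 5 of 277 cells. Non-myelinating cells held 4.32 CPM (1.59 to 9.40) in neonatal FACS and 2.76 CPM (1.26 to 5.23) in neonatal beads. Fgf2 shares 255 exonic bases with Gm43439 on the same strand. It also shares 640 exonic bases with the antisense gene Nudt6, which itself had 6 UMIs in the uninjured non-myelinating class. The reads of Fgf2 may therefore not be separable from those of either gene. After thinning no Fgf2 UMI was left in that class.

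Fgfr1 was read in every class with at least 50 cells. Its highest levels were in mesenchymal classes, 385 CPM (336 to 438) in Pi16 epineurial-like cells at 3 DPI and 492 CPM (393 to 607) in those of the uninjured nerve. Endoneurial-like cells held 282 CPM (256 to 310) at 3 DPI, 250 CPM (221 to 282) in the uninjured nerve, 368 CPM (312 to 431) in neonatal FACS and 313 CPM (267 to 364) in neonatal beads. Comp epineurial-like cells held 331 CPM and 271 CPM, and bridge-like cells 246 CPM. At 3 DPI the order Pi16, Comp, endoneurial-like and bridge-like had no neighbours apart beyond their intervals, and the step to Top2a mesenchymal-like cells, at 190 CPM (167 to 215), was the first that was. In the uninjured nerve Pi16 cells were 1.81-fold (1.39 to 2.35) above Comp cells, whereas at 3 DPI the ratio was 1.16 (0.949 to 1.42).

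Schwann-like and vascular cells held less Fgfr1. The level was 121 CPM (90.9 to 158) in Schwann-like cells at 3 DPI and 105 CPM (72.4 to 148) in uninjured non-myelinating cells, a ratio of 1.15 (0.732 to 1.83). It was 90.7 CPM (75.6 to 108) and 61.8 CPM (53.6 to 71.0) in the neonatal non-myelinating classes, whose intervals did not overlap. That class was made of different clusters in each preparation, with 461 of 747 FACS cells in a cluster led by Pmel and 2306 of 3169 bead-prepared cells in one led by Scn7a, and it included dividing cells in both. Endothelial-like cells ranged from 35.1 to 48.2 CPM over the 4 libraries and overlapped one another. Macrophage/monocyte-like cells held 47.7 CPM (30.6 to 71.0) with a UMI in 5.36% of cells, so the endothelial-like level was no higher than in cells of an immune class. In neonatal VSM/pericyte-like cells Fgfr1 was at 17.6 CPM and 28.8 CPM, against 84.6 CPM (52.4 to 129) in the uninjured nerve, for ratios of 0.209 (0.0615 to 0.569) and 0.340 (0.160 to 0.702).

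Fgfr2 was sparse and centred on endoneurial-like cells. They held 30.6 CPM (22.4 to 40.8) at 3 DPI with a UMI in 11.6% of cells, 23.5 CPM (15.2 to 34.7) in the uninjured nerve, 24.2 CPM (11.6 to 44.5) in neonatal FACS and 33.9 CPM (20.1 to 53.6) in neonatal beads. All 4 intervals overlapped. Pi16 epineurial-like cells at 3 DPI reached a like level, 26.99 CPM (15.4 to 43.8), against 11.4 CPM from 2 UMIs in the uninjured nerve. That ratio of 2.36 was called higher, but its interval, 0.555 to 21.2, held 1. Comp epineurial-like cells, where Fgf7 was highest, had 3 Fgfr2 UMIs at 3 DPI and 1 in the uninjured nerve.

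Fgfr3 was an endothelial receptor in these libraries. Endothelial-like cells held 77.8% of its UMIs in the 3 DPI library, 93.5% in the uninjured one, both of the 2 UMIs of neonatal FACS and 95.7% in neonatal beads, when they held between 7.94% and 32.6% of all UMIs. The level was 43.6 CPM (33.1 to 56.3) in the uninjured nerve, 13.5 CPM (7.38 to 22.7) at 3 DPI, 5.40 CPM (0.654 to 19.5) in neonatal FACS and 21.2 CPM (13.3 to 32.1) in neonatal beads. The uninjured level was above the other 3, and 3.23-fold (1.78 to 6.27) above that at 3 DPI. The shares of cells with a UMI lay closer, at 33 of 420 and 14 of 242 cells, and were 2.18% and 1.45% after thinning. With cells weighed equally the ratio of 3 DPI over uninjured was 0.586, and on thinned cells 0.599, so that the call was lost under both.

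The uninjured endothelial-like class was made of 3 clusters. The cluster led by Slco1a4 and Cldn5, genes of barrier-forming endothelium, held 61.1 CPM (40.6 to 88.3). A mixed cluster, with the capillary genes Rbp7 and Gpihbp1 and the lymphatic genes Ccl21a and Lyve1 among its leading genes, held 53.4 CPM (31.6 to 84.3). The cluster marked by the adhesion genes Selp and Sele held 22.4 CPM (11.6 to 39.2), which lay below the first beyond the intervals but overlapped the mixed cluster. At 3 DPI all endothelial-like cells formed a single cluster, so its makeup of vessel types cannot be told apart from the level of Fgfr3 in each. In the annotation Fgfr3 shares 998 exonic bases with G630022F23Rik and Fgfr1 shares 164 bases with Gm16159, both on the opposite strand. Fgfr2 shares 314 exonic bases with Ctbp2 on the same strand, which counting by strand would not separate. That overlap belongs to an Fgfr2 gene model of 2960900 bases, and no source used here states whether the counting used this model.

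**Figure D4:**
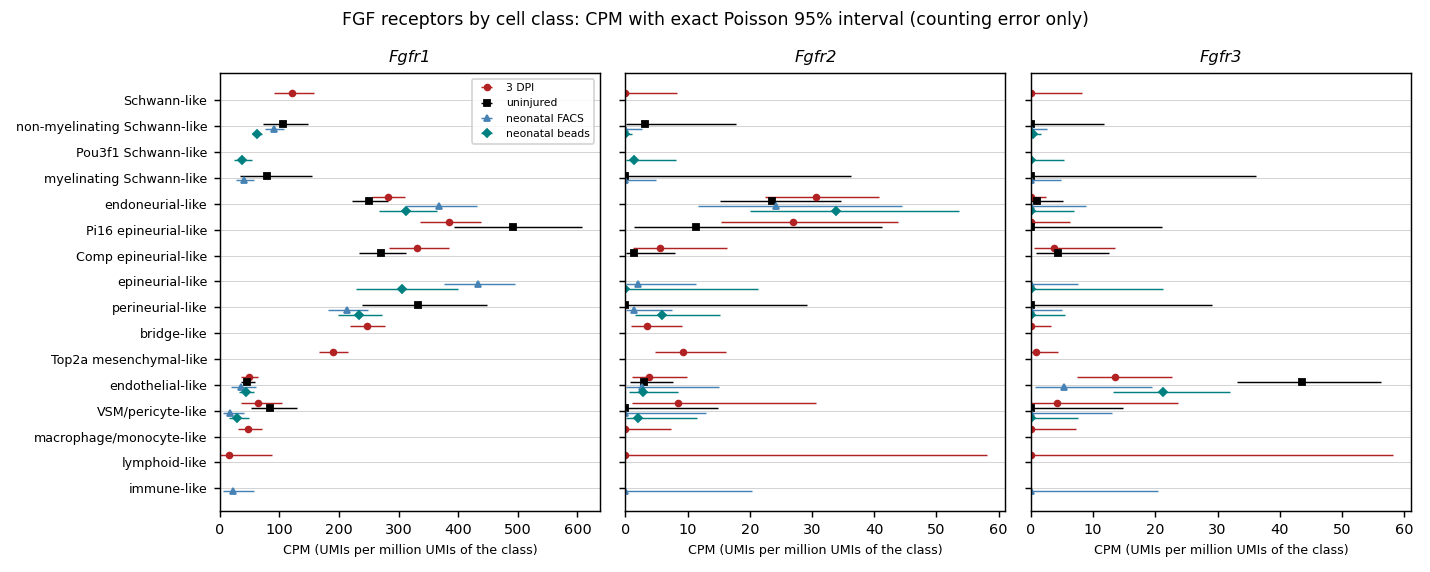
Level of each FGF receptor (CPM, horizontal axis) in each cell class with at least 50 cells (vertical axis), 1 point per library with its exact Poisson 95% interval. Fgfr1 is highest in mesenchymal classes, Fgfr2 in endoneurial-like cells at 23.5 to 33.9 CPM, and Fgfr3 in endothelial-like cells, at 43.6 CPM in the uninjured nerve.

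Ligand and receptor UMIs were found in the same cells of the mesenchymal classes. Of 170 Comp epineurial-like cells at 3 DPI, 90 had a UMI of at least 1 member ligand, 89 of at least 1 member receptor and 53 of both. Of 263 Pi16 epineurial-like cells at 3 DPI, 37 had UMIs of more than 1 of the ligands, and of 276 endoneurial-like cells only 3 did. In the endoneurial-like class, 99 of 276 cells at 3 DPI had a ligand UMI and 34 of 417 in the uninjured nerve, while 158 and 179 had a receptor UMI. Fgf7 alone was read in 86 and 23 of these cells. Of 420 uninjured endothelial-like cells, 71 had a receptor UMI, 12 a ligand UMI and 2 both. These counts move with the depth of the cells, and the overlaps were not compared with those that independent detection of ligand and receptor would give.

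The genes with the most similar pattern to each member were found by Pearson's correlation of log2(CPM + 5) over 33 points (classes with at least 50 cells in each library), which share libraries and cell lineages. Fgf18 was most like Clec3b (r = 0.95), Wnt2 (0.90) and Arsi (0.89), and Fgf10 most like Gm26771 (0.93), Dpt (0.86) and Dkk2 (0.86). Fgf7 was most like 2810055G20Rik (0.86), Mfap5 (0.85) and Tnxb (0.83). Fgf10 and Fgf18 had an r of 0.85 with each other. Fgfr1 was nearest to Echdc2 (0.92), Slc4a4 (0.92) and Dcn (0.91), a collagen-binding proteoglycan of fibroblasts. Fgfr3 was nearest to Ptprr (0.92), to Nos3 (0.90), the endothelial nitric oxide synthase, and to Sox17 (0.89), an endothelial transcription factor. Fgfr2 was nearest to Cyp1b1, Osr2 and Clic6, each with an r of 0.80. Fgf1 was nearest to Zfp651 (0.80), Ptprf (0.79) and Mapre3 (0.78), and Fgf5 to Tnc (0.67), Thbs2 (0.64) and Btc (0.62). Dpt, Clec3b and Osr2 were among the markers used to name classes. With a pseudocount of 20 CPM, 14 of these 24 genes stayed among the nearest 3.

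The rest of the FGF pathway was counted from a list of other ligands, co-receptors, heparan sulfate genes, adaptors, feedback inhibitors and ETS target genes. Among other ligands, Fgf9 stood at 67.4 CPM and 77.5 CPM and Fgf16 at 29.96 CPM and 28.7 CPM in Comp epineurial-like cells at 3 DPI and in the uninjured nerve. In endoneurial-like cells, where the median log2 ratio of all tested genes was 0.24, the enzymes that build or trim heparan sulfate were counted against 19.5% of all genes called higher and 9.81% lower. Of 12 tested, 8 were called higher and 0 lower, with a median log2 ratio of 1.08, and the 4 with the highest level were Glce, Extl3, Ndst1 and Hs2st1. Glce held 79.8 CPM against 36.7 CPM (ratio 2.18, 1.5 to 3.21) and Hs2st1 51.2 CPM against 17.9 CPM (2.86, 1.72 to 5.01). After thinning 2 of these enzymes were still called higher, but thinning also leaves fewer genes with the 10 UMIs needed for a call.

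The feedback inhibitors in endoneurial-like cells had 3 of 8 called higher at 3 DPI and 0 lower, beside the same 19.5% and 9.81% of all genes, with a median log2 ratio of 0.42. With the small numbers tested, the counts of the groups in this paragraph do not set them apart from all genes. Spred1, an inhibitor of Ras signalling, stood at 417 CPM against 102 CPM (ratio 4.10, 3.34 to 5.08). The phosphatase gene Dusp5 had a ratio of 5.57 (2.66 to 13.5) and Spred3 of 4.71 (1.40 to 24.8). Of 3 ETS targets, Etv4 was called higher, with 88.5 CPM against 37.6 CPM (2.35, 1.64 to 3.44). Fgfrl1, a receptor without a kinase domain, stood at 81.2 CPM against 40.5 CPM (2.01, 1.41 to 2.91), and Flrt2 had a ratio of 3.28 (1.69 to 6.97). Of 10 proteoglycans, the glypican Gpc1 was higher, at 87.8 CPM against 28.2 CPM, and Gpc3 lower, with a ratio of 0.303 (0.290 to 0.317). Of 8 adaptors, Gab1, Plcg1 and Cbl were called higher, with ratios of 2.50, 2.17 and 2.92.

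Schwann-like cells at 3 DPI were again set against uninjured non-myelinating cells only, and the calls depend on that choice. There 19.8% of all genes were called higher and 15.4% lower. Proteoglycans, feedback inhibitors, adaptors and co-receptors had genes in both directions. Gpc1 stood at 497 CPM at 3 DPI against 12.8 CPM in uninjured non-myelinating cells (ratio 39.0, 15.0 to 144), and the syndecan Sdc1 at 114 CPM against 9.56 CPM (11.9, 3.86 to 59.8). Sdc4, Gpc3 and Gpc4 were lower, with ratios of 0.394, 0.245 and 0.307. Of 6 feedback inhibitors, Dusp5 was higher, with a ratio of 5.27 (1.23 to 47.5), and Dusp6, a phosphatase that inactivates ERK, lower, at 166 CPM against 1425 CPM (0.116, 0.0897 to 0.149). The ETS target Etv1 was lower as well (0.301, 0.139 to 0.612). Of 7 adaptors, Shc1 was higher and Gab1 and Sos1 lower. Of 7 heparan sulfate enzymes, Hs2st1, Extl3 and Ndst2 were higher and 0 lower. Among co-receptors Nrp1 was higher (3.26, 1.68 to 6.93) and Flrt3 lower (0.495, 0.260 to 0.923).

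**Figure D5:**
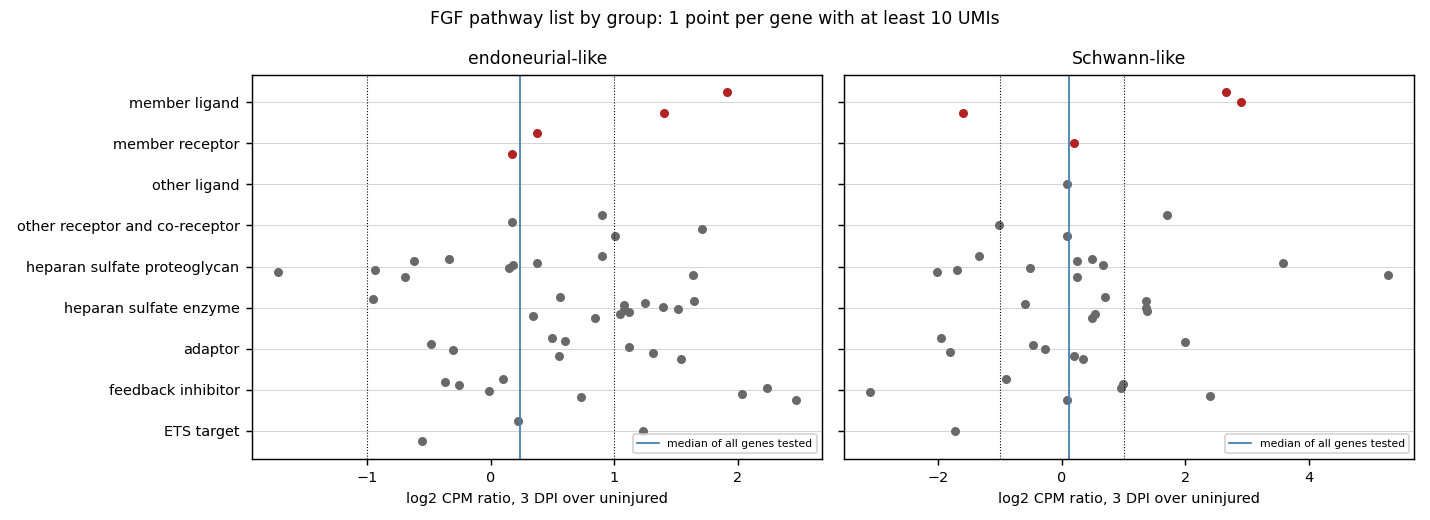
log2 CPM ratio of 3 DPI over uninjured for each tested gene of the FGF list (1 point per gene, horizontal groups by role) in endoneurial-like and Schwann-like cells. The blue line is the median of all genes tested, dotted lines mark 1 and -1, and red points are the 9 members where tested. Heparan sulfate enzymes lie mostly above the blue line in endoneurial-like cells, and Gpc1 and Dusp6 are the extreme points in Schwann-like cells.

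In the other classes the calls of the list, members left out, were counted in the same way. In endothelial-like cells 2 of 43 tested genes were higher and 1 lower, against 9.93% and 8.11% of all genes. There 0 of 12 heparan sulfate enzymes were called, Hspg2 and Spred3 were higher and the adaptor Frs2 lower. In Pi16 epineurial-like cells 6 of 40 tested genes were higher and 2 lower, against 14.7% and 8.35% of all genes. The genes were Fgfrl1, Agrn, Sdc1, Ext2, Extl3 and Dusp6, which were higher, and Flrt3 and Hs3st1, which were lower. In Comp epineurial-like cells 6 of 43 tested genes were higher and 1 lower, against 10.6% and 7.89% of all genes. Gpc1, Sdc3, Ndst2, Hs6st2, Spred1 and Spry1 were higher and Spry4 lower. In VSM/pericyte-like cells 6 of 29 tested genes were higher and 3 lower, against 16.6% and 13.2% of all genes. Hspg2, Ext1, Sulf1, Ndst1, Cbl and Spred2 were higher and Sdc2, Gpc3 and Dusp6 lower.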

How the data were processed

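The authors deposited a table of raw UMI counts per gene and cell for each of 4 Drop-seq libraries, made after the Drop-seq Alignment Cookbook with genome build mm10, and the sources used here state neither the aligner version nor the annotation or strand setting. The deposited counts were used as whole numbers with no further normalization. The files held 2500 (3 DPI), 2000 (uninjured), 2500 (neonatal FACS) and 6200 (neonatal beads) barcodes with 8123103, 4513814, 5110171 and 7634799 UMIs. Barcodes with fewer than 200 genes, over 10% mitochondrial or over 5% hemoglobin UMIs were dropped, as were the 5% with the highest scrublet score (scanpy 1.11.5), since scrublet's own threshold marked only 7 to 12 per library. The neonatal libraries were clustered together and the adult ones each alone, with scran 1.30.0 size factors, 2000 variable genes and 20 principal components, at resolution 0.4 in Seurat 5.3.0 (R 4.3.3). Clusters were named from marker lists, with thresholds set after the clusters were seen. A class needed at least 3 detected markers.

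UMIs were summed over a class in a library and given as CPM with exact Poisson 95% intervals, ratios with exact intervals, and a group at 0 was set to a floor of 3 UMIs over the class. Depth set the precision, since 1 UMI was worth more CPM in small classes. No test was made between conditions, because there was 1 library per adult condition. The 2-fold rule, the floor and the intervals were run on simulated Poisson counts, the model that the intervals assume. Changes were planted only in genes with enough uninjured UMIs. This run cannot show how they behave for sparse genes or where UMIs of a gene clump within cells. The sums do not separate fewer positive cells from less mRNA per cell. The members and gene lists were chosen with earlier results of these data known. All 9 members were named, and of the pathway list the genes past 2-fold, at most 4 per group and comparison by level, with values for a part of them; outside the endoneurial-like and Schwann-like classes all called genes are named without values. For each member with at least 50 UMIs the 3 nearest genes by correlation were named, among genes with at least 200 UMIs. Alternatives tried were a 500-gene minimum, no doublet removal, 5% mitochondrial UMIs, library-size normalization, a resolution of 0.8, cells assigned from their own markers, equal weight per cell, thinning to 500 UMIs, each neonatal library alone, 30 UMIs for a call and a pseudocount of 20 CPM.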

Additional observations from a re-analysis of the deposited data

Results flagged for a closer look

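Fgf1 was singled out because it was called higher at 3 DPI in some classes and called lower in others. The CPM ratio of 3 DPI over uninjured was 2.65 in endoneurial-like, 2.61 in Comp epineurial-like and 2.89 in endothelial-like cells. It was 0.329 in Schwann-like cells set against uninjured non-myelinating cells and 0.441 in VSM/pericyte-like cells. The intervals of the higher ratios all held 1. The lower call was lost in Schwann-like cells after thinning, and in VSM/pericyte-like cells when every cell weighed equally. With 1 library on each side, the difference between classes was not tested.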

How the results depend on the processing

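None of the values recomputed, at most 31 per alternative and mostly levels and ratios of the members, changed direction; single genes of the pathway list were not recomputed. A minimum of 500 genes per barcode and the inclusion of likely doublets left all 31 values within the counting interval of the reported value or, for counts, within 1.5 times. A limit of 5% mitochondrial UMIs and library-size normalization each moved 3 of 28 values beyond these limits. Thinning cells to 500 UMIs moved the most, 13 of 31 values, of which a part is given here. Thinned values rest on fewer UMIs, and their own wider counting error was not taken into account in that number. It therefore cannot tell an effect of depth from counting error. Fgf2 in uninjured non-myelinating Schwann-like cells went to 0 CPM and Fgf7 in uninjured Comp epineurial-like cells to 323 CPM. Fgf10 and Fgf18 in 3 DPI Pi16 epineurial-like cells went to 40 and 136 CPM. In Schwann-like cells the 3 DPI over uninjured ratio of Fgf1 went to 0.968. The lower bound for Fgf5 went to 2.84, and it falls with thinning because the floor of 3 UMIs stands for a higher CPM. The Fgfr3 ratio in endothelial-like cells went to 0.599. The members called higher over the 6 classes went from 7 to 1. With at least 30 UMIs for a call, 2 were called higher. With cells assigned from their own markers, 6 of 31 values moved. Among them, Fgf7 in uninjured Comp epineurial-like cells was at 175 CPM, Fgf10 in 3 DPI Pi16 epineurial-like cells at 45.6 CPM and the Fgf5 bound at 4.86. With cells weighed equally, 4 of 28 values moved, among them Fgf5 in 3 DPI Schwann-like cells to 105 CPM and the Fgfr3 ratio to 0.586. At a resolution of 0.8, Fgfr1 in uninjured Pi16 epineurial-like cells was at 366 CPM. The causes were not tested. The Fgf7 ratio in endoneurial-like cells ranged from 2.79 to 5.63. No value could be had for uninjured Comp epineurial-like cells, or for the counts of members called, at a resolution of 0.8, or for neonatal perineurial-like cells under 5% mitochondrial UMIs or library-size normalization, or for neonatal epineurial-like cells in beads alone, since no such class was named, and equal weighting gives no counts of calls. No paired analysis was made, because nothing in the sample labels links libraries of different conditions.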
